A study of Mus musculus with 2 samples.

Results

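Inflammatory cytokines and the receptors that read them were followed in bone marrow (BM) monocyte and granulocyte cells of mice with severe aplastic anemia (SAA), a disease in which T cells destroy the marrow. The 10 genes were chosen by symbol from the 31053 genes in the files, and each symbol matched 1 row. They encode TNF (*Tnf*), members and inhibitors of the IL-1 family (*Il1b*, *Il1rn*, *Il18*, *Il18bp*), a subunit of IL-27 (*Il27*), IL-15 (*Il15*) and receptor chains for IL-10, IL-6 and IL-13 (*Il10ra*, *Il6ra*, *Il13ra1*). The SAA library was made from F1 hybrid mice of genotype C57BL/6;Balb/c given 300 rads and then 65000000 B6 splenocytes, and the radiation control (RC) library from mice of that genotype given 300 rads alone. Both groups were therefore irradiated, and their ages and the day of collection for sequencing are not given in the sources used here. Live CD11b+ Ly6C+ Ly6G- BM cells were sorted and the cells of 3 mice per group were pooled into 1 droplet library, and the host and donor cells of SAA were not told apart. There is thus no replicate, and no test between SAA and RC was possible.

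TNF and IL-1β are early cytokines of activated monocytes, and IL-1β and IL-18 are made as precursors that inflammasome caspases cut. Each has a soluble brake: the IL-1 receptor antagonist, encoded by *Il1rn*, occupies the IL-1 receptor without signalling, and IL-18 binding protein, encoded by *Il18bp*, captures IL-18. IL-27 pairs the product of *Il27* with that of *Ebi3*, IL-15 is shown to T and NK cells bound to its receptor α chain, and the receptor chains for IL-6, IL-10 and IL-13 decide which cells respond to those cytokines. In SAA, cytokines made by T cells and by myeloid cells are known to act on the marrow together.

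Each gene was measured as unique molecular identifiers (UMIs), each standing for 1 captured RNA molecule. The SAA library held 825 barcodes with 5592265 UMIs, and the RC library 798 barcodes with 4066589 UMIs; 729 SAA and 662 RC barcodes with at least 1000 detected genes were retained. A barcode was called monocyte-like where the UMIs of 5 monocyte genes (*Csf1r*, *Ccr2*, *F13a1*, *Ms4a6c*, *Ly86*) exceeded those of 8 granule genes (*Camp*, *Ngp*, *Fcnb*, *Cebpe*, *Elane*, *Mpo*, *Prtn3*, *Ctsg*), and granulocyte-like where the reverse held. Monocyte-like cells numbered 285 of SAA (39.1%) and 342 of RC (51.7%), and granulocyte-like cells 421 of SAA (57.8%) and 318 of RC (48.0%), although the gate left out Ly6G+ cells. *Ly6g* itself had 444 UMIs in 195 granulocyte-like cells of SAA and 340 UMIs in 147 of RC. Monocyte-like cells were deeper in SAA, with a median of 6082 UMIs per cell, than in RC, with 3347.5, whereas granulocyte-like cells were alike at 6849 and 6787.5 in SAA and RC. In 39 SAA barcodes and 1 RC barcode the summed T or NK markers led both class sums, and 10 of these SAA barcodes were counted as monocyte-like and 7 as granulocyte-like. A margin under 4-fold between the class sums was seen in 67 SAA and 24 RC monocyte-like cells and in 15 SAA and 7 RC granulocyte-like cells, here called mixed barcodes.

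Levels are given as CPM, the UMIs of a gene scaled to a class total of 1e6 UMIs, with the ratio of SAA to RC and its exact 95% interval. A gene with at least 20 UMIs over both libraries was called higher or lower where the ratio reached 2-fold. Where 0 cells held a UMI, the limit given is the share that a floor of 3 cells would make, with the exact 95% upper limit beside it. Both bound detection and not expression. The intervals, and those on shares of cells, cover counting error only and not the difference between mice. Since SAA monocyte-like cells were deeper, shares of cells with a UMI were also computed at equal depth, by drawing 2600 UMIs at random from each cell. This left out 18 SAA and 76 RC monocyte-like cells and 8 SAA and 1 RC granulocyte-like cells.

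Of the 10 genes, 4 were higher in SAA in monocyte-like cells (*Tnf*, *Il1rn*, *Il18bp* and *Il27*), 2 were lower (*Il15* and *Il6ra*), and *Il1b*, *Il18*, *Il10ra* and *Il13ra1* stayed within 2-fold. Among all 8662 genes with enough UMIs in these cells 7.8% were higher and 8.67% lower. Granulocyte-like cells had enough UMIs for 7 of the 10 genes, of which *Il18bp*, *Il27* and *Il10ra* were higher and *Il15* lower, beside 6.63% higher and 5.12% lower of 8812 genes. *Il1b*, *Il18* and *Il13ra1* were too sparse to judge in granulocyte-like cells, with 1, 2 and 13 UMIs over both libraries. The median log2 ratio of the genes with enough UMIs was 0.35 in monocyte-like cells, where that of all genes was -0.06, and 0.63 in granulocyte-like cells, where that of all genes was 0.04. The all-gene shares and medians are also the background for the pathway and marker lists below, none of which was tested against them. Several of the lists include some of the 10 genes, which are then counted again.

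**Figure D1:**
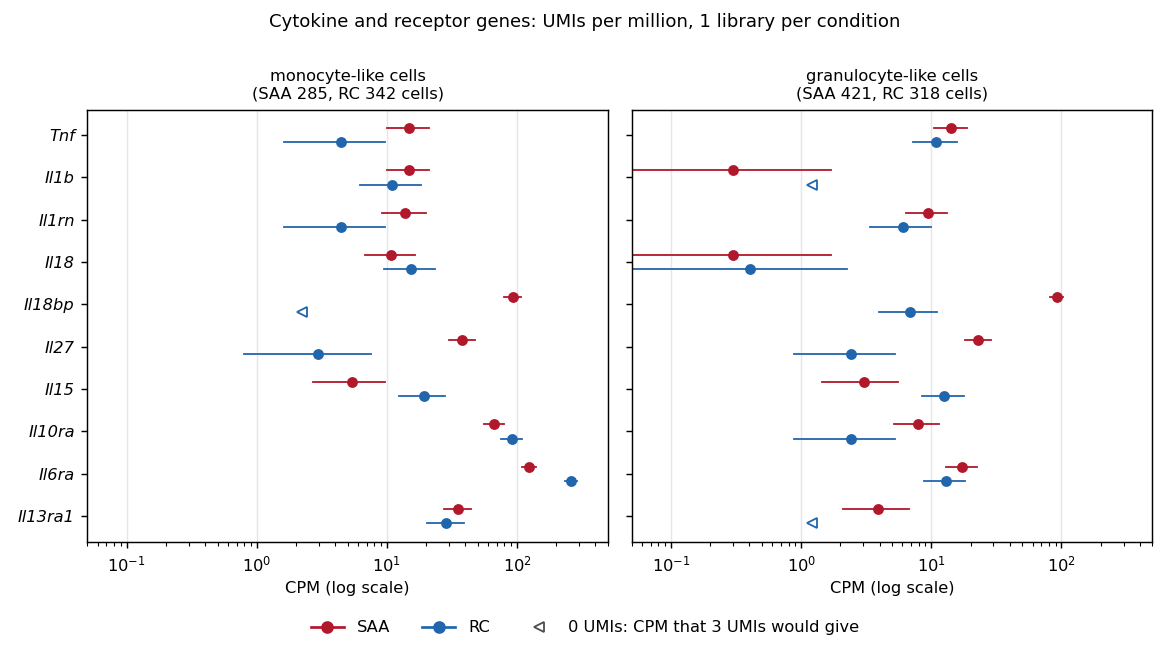
CPM of the 10 genes on a log scale in monocyte-like (left) and granulocyte-like (right) cells, SAA in red above RC in blue, with points for the level and lines for the exact 95% Poisson interval; an open triangle marks a gene at 0 UMIs at the CPM that 3 UMIs would give. *Il18bp* stood at 92.7 CPM in SAA monocyte-like cells against 0 UMIs in RC, and *Il6ra* at 124 against 261 CPM.

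Proximal promoter sequence is shown for *Il18bp*, the gene with the largest ratio, for *Il6ra*, the lower gene with the most UMIs, and for *Tnf* and *Il1b*, the early cytokines of the set. RefSeq promoter windows of GRCm38.p6, reaching 250 bases before and 50 bases after a start site, were matched by symbol for 7 of the 10 genes, with 9 windows between them. The 100 bases before the start site are printed on the strand of the gene, with any TATA box (TATAAA) in capitals. They lie at chr7:102018233-102018332 (minus strand) for *Il18bp*, chr17:35202008-35202107 (minus) for *Tnf*, chr2:129371140-129371239 (minus) for *Il1b* and chr3:89913197-89913296 (minus) for *Il6ra*.
Il18bp: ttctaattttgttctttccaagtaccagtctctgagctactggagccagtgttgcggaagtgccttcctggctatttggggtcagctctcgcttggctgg
Tnf: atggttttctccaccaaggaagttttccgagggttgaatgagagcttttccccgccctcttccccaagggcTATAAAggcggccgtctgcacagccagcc
Il1b: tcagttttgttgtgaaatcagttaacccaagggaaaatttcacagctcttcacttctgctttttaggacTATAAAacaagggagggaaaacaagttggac
Il6ra: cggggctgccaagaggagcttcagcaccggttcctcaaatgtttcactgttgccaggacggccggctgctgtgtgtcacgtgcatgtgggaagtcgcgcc
A TATA box began 29 bases before the start site of *Tnf* and 31 bases before that of *Il1b*, and the printed stretches of *Il18bp* and *Il6ra* held none. In whole windows, searched on both strands, TATAAA was found in 13.6% of all 32851 windows and in 4 of the 9 windows here, those of *Tnf*, *Il1b*, *Il18* and *Il1rn*. The interferon gamma activated site (TTCNNNGAA) was found in 8.3% of all windows, the interferon-stimulated response element (GAAANNGAAA) in 3.44% and the κB site in 8.46%, and in 0 of the 9 windows here in each case. The RefSeq start of *Il18bp* lay 458 bases inside the 5′ end of the GENCODE vM21 gene, so the window does not cover every start of that gene.

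*Tnf*, a gene on chromosome 17 (GRCm38, 35199381 to 35202007, minus strand), encodes TNF, a trimeric cytokine that activates NF-κB and can kill its targets. In monocyte-like cells it had 30 UMIs in 22 of 285 SAA cells, against 6 UMIs in 5 of 342 RC cells, or 14.8 CPM (9.98–21.1) in SAA and 4.42 CPM (1.62–9.61) in RC. The ratio was 3.35 (1.37–9.84), and no cell held more than 3 UMIs. A *Tnf* UMI was therefore a rare event in both libraries. After thinning it was found in 4.49% of SAA (2.34–7.72%) and 1.13% of RC monocyte-like cells (0.233–3.26%), intervals that overlap. Granulocyte-like cells held *Tnf* at 14.2 CPM in SAA, from 47 UMIs in 39 cells, and at 10.9 CPM in RC, from 27 UMIs in 22 cells, a ratio of 1.30 (0.79–2.17). In RC, *Tnf* stood at 0.406 times its granulocyte-like level in monocyte-like cells (0.137–1.0), whereas in SAA the classes were level at 1.04 (0.637–1.68). In the 39 T or NK-like barcodes of SAA, a type that can make TNF itself, 1 *Tnf* UMI was found.

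Of the 30 *Tnf* UMIs in SAA monocyte-like cells, 23 lay in non-cycling cells. When the monocyte-like cells were split at 0.1% of UMIs from 8 cycling genes, *Tnf* in the 158 SAA and 251 RC non-cycling cells stood at 27.2 and 3.75 CPM, from 23 UMIs in SAA and 3 in RC. Among the 127 SAA and 91 RC cycling cells it stood at 5.92 and 5.38 CPM, from 7 UMIs in SAA and 3 in RC. The ratios were 7.25 (2.19–37.7) in non-cycling and 1.10 (0.251–6.60) in cycling cells, whose intervals overlap, and the difference between them was not tested. The split cuts a continuous score, and 33 SAA and 9 RC monocyte-like cells lay within 0.05 percentage points of it.

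Of 21 TNF signalling genes, 19 had enough UMIs in monocyte-like cells, with a median log2 ratio of 0.23. Of these 3 were higher in SAA and 1 lower, beside 7.8% higher and 8.67% lower among all genes. The higher ones were *Tnf* and its feedback inhibitors *Tnfaip3*, which encodes A20, and *Nfkbia*, which encodes IκBα. *Tnfaip3* had 69 UMIs in SAA and 7 in RC, a ratio of 6.60 (3.04–17.0). *Nfkbia* had 391 UMIs in SAA and 116 in RC, a ratio of 2.26 (1.83–2.80). *Nfkbiz*, which encodes the nuclear IκBζ, was lower at 0.40 (0.22–0.69), from 22 UMIs in SAA and 37 in RC. Granulocyte-like cells differed in which genes passed, with *Tnfaip3* at 1.18 (0.58–2.48), *Nfkbia* at 1.11 (0.96–1.28) and *Nfkbiz* higher at 2.65 (1.41–5.34). *Rhbdf2*, whose product carries the TNF-releasing protease ADAM17 to the cell surface, was the other of 2 higher genes among 18 there, at 2.93 (1.89–4.70), and is named after its value had been seen.

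*Il1b* (chromosome 2, 129364570 to 129371139, minus strand) encodes IL-1β. It had 30 UMIs in 15 monocyte-like cells of SAA, against 15 UMIs in 8 cells of RC, or 14.8 CPM (9.98–21.1) in SAA and 11.0 CPM (6.18–18.2) in RC. The UMIs were concentrated, with up to 6 in 1 SAA cell and up to 5 in 1 RC cell, so the ratio of 1.34 (0.70–2.68) rests on few cells. It depended on the cell filter: with at least 1500 genes and at most 10% mitochondrial UMIs, 19 UMIs were left in SAA and 0 in RC. Its antisense neighbour *Il1bos* had 0 UMIs in both classes of both libraries. Granulocyte-like cells held 1 *Il1b* UMI in SAA and 0 in RC, and in SAA the gene stood 49.0 times (8.15–2001) higher in monocyte-like than in granulocyte-like cells. After thinning, 2.62% of SAA and 1.5% of RC monocyte-like cells held a UMI.

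*Il1rn* (chromosome 2, 24336853 to 24351494, plus strand), whose product blocks the IL-1 receptor, had 28 UMIs in 21 monocyte-like cells of SAA and 6 UMIs in 6 cells of RC. Its levels were 13.8 CPM (9.17–20) in SAA and 4.42 CPM (1.62–9.61) in RC, a ratio of 3.13 (1.27–9.23). The gene was found in granulocyte-like cells too. These held 31 UMIs in 28 cells of SAA and 15 UMIs in 15 cells of RC, or 9.35 and 6.05 CPM in SAA and RC, a ratio of 1.55 (0.81–3.08). At equal depth the share of monocyte-like cells with an *Il1rn* UMI was 3.37% in SAA (1.55–6.30%) and 1.5% in RC (0.411–3.81%), intervals that overlap. Of the 15 SAA monocyte-like cells with an *Il1b* UMI, 3 also held one of *Il1rn*, against 0 of 8 in RC.

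*Il18* (chromosome 9, 50554827 to 50581840, plus strand) encodes the IL-18 precursor, which many cells keep in store. Its counts were nearly equal in monocyte-like cells, with 22 UMIs in 20 SAA cells and 21 UMIs in 21 RC cells. Since the SAA class held more UMIs in all, this gave 10.8 CPM (6.80–16.4) in SAA and 15.5 CPM (9.57–23.6) in RC, a ratio of 0.70 (0.37–1.34). Granulocyte-like cells held 1 UMI in each library, so *Il18* was a monocyte-like transcript in both, at 36.0 times the granulocyte-like level in SAA (5.81–1484) and 38.3 times in RC (6.17–1585). All 21 RC UMIs lay in non-cycling cells, whereas the SAA UMIs fell into 14 in non-cycling and 8 in cycling cells.

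*Il18bp* (chromosome 7, 102014885 to 102018690, minus strand), the inhibitor of IL-18, differed most between the libraries. Monocyte-like cells held 188 UMIs in 114 of 285 SAA cells, against 0 UMIs in 342 RC cells. This was 92.7 CPM (79.9–107) in SAA and 42-fold higher than RC set at a floor of 3 UMIs, while the exact lower limit of the ratio is 33.8. The signal was spread over many cells, with 60 SAA cells at 1 UMI, 42 at 2 UMIs and 1 cell at 8 UMIs, the highest. A UMI was found in 40.0% of SAA cells (34.3–45.9%), while 0 of 342 RC cells allows a share of up to 0.877% by that floor (exact limit 1.07%). After thinning the share was 20.2% in SAA (15.6–25.5%), against 0 of 266 in RC, which allows up to 1.13% by that floor (exact limit 1.38%).

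Granulocyte-like cells of SAA carried *Il18bp* at the same level as monocyte-like ones. It had 306 UMIs in 185 of 421 SAA cells and 17 UMIs in 17 of 318 RC cells, or 92.3 CPM (82.2–103) in SAA and 6.86 CPM (3.99–11.0) in RC, a ratio of 13.5 (8.27–23.4). Within SAA the monocyte-like level was 1.0 times the granulocyte-like one (0.833–1.21). In RC the 17 UMIs of granulocyte-like cells stood beside 0 in monocyte-like cells. The T or NK-like barcodes of SAA (median 4629 UMIs) held it in 0 of 39, which allows a share of up to 7.69% by the floor of 3 cells (exact limit 9.03%). At equal depth 20.8% of SAA (17.0–25.1%) and 1.26% of RC granulocyte-like cells (0.345–3.20%) held a UMI.

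*Il18bp* was higher in SAA in all 4 parts of the classes. In monocyte-like cells of SAA it stood at 80.4 CPM in cycling and 109.8 CPM in non-cycling cells, with 0 UMIs in both parts of RC. Granulocyte-like cells were split by whether early (*Elane*, *Mpo*, *Prtn3*, *Ctsg*) or late granule genes led, sums that lay within 2-fold of each other in 16 SAA and 18 RC cells. Where early ones led, in 31 SAA and 51 RC cells, it stood at 110.8 CPM in SAA and 10.5 CPM in RC. Where late ones led, in 390 SAA and 267 RC cells, it stood at 89.4 CPM in SAA and 5.77 CPM in RC. *Numa1* overlaps *Il18bp* on the opposite strand, and whether the counting used strand is not given in the sources used here. *Numa1* itself had 125 UMIs in SAA and 91 in RC in monocyte-like cells, a ratio of 0.92 (0.70–1.22), and 225 and 204 UMIs in granulocyte-like cells of SAA and RC, a ratio of 0.82 (0.68–1.0).

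**Figure D2:**
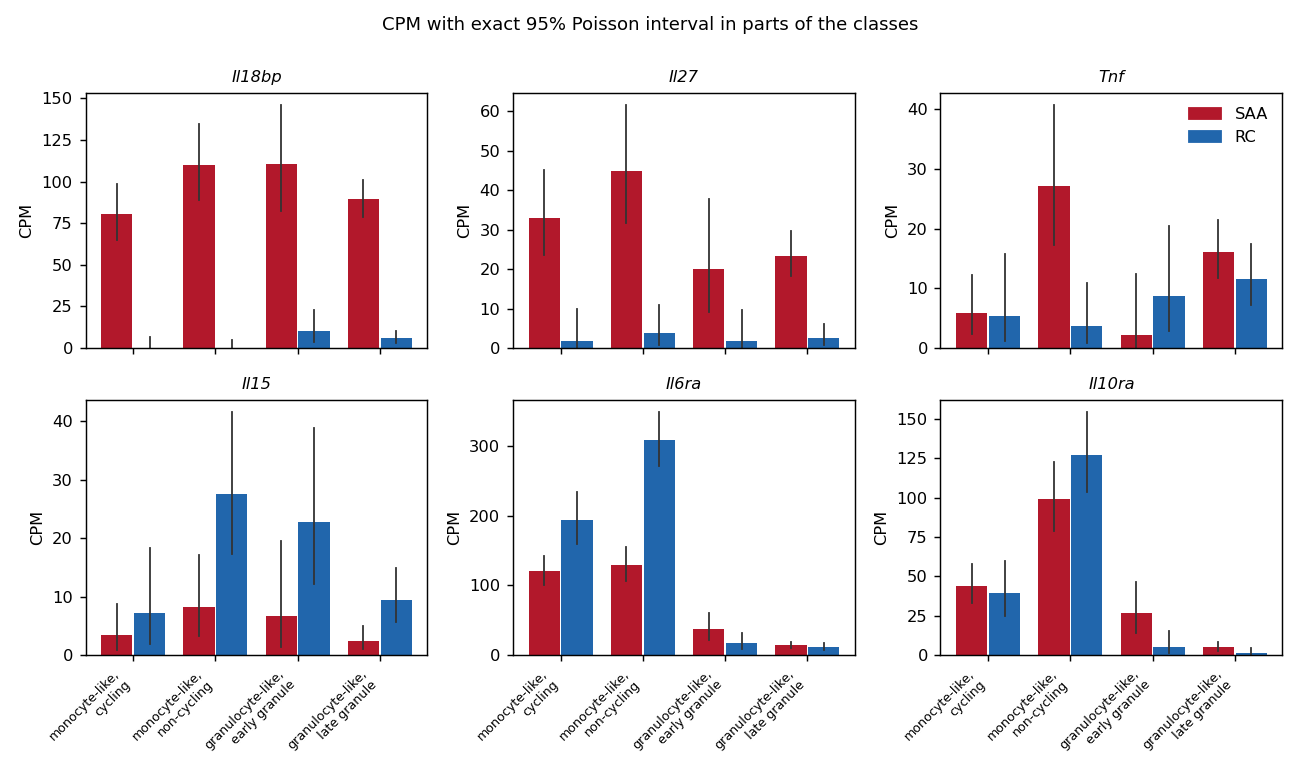
CPM of *Il18bp*, *Il27*, *Tnf*, *Il15*, *Il6ra* and *Il10ra* in cycling and non-cycling monocyte-like cells and in granulocyte-like cells led by early or late granule genes, with SAA bars (red) left of RC bars (blue) and lines for the exact 95% Poisson interval; each panel has its own axis from 0. *Il18bp* is higher in SAA in all 4 parts, whereas the *Tnf* bars part in non-cycling monocyte-like cells, at 27.2 CPM in SAA and 3.75 CPM in RC.

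The IL-1 family list, which includes *Il1b*, *Il1rn*, *Il18* and *Il18bp*, gave 5 higher and 0 lower of 13 with enough UMIs in monocyte-like cells. The median log2 ratio was -0.08, and *Il1rn* and *Il18bp*, already counted above, were among the higher genes. Of the 26 genes listed, 21 were matched by symbol. *Il1r2*, the decoy receptor that binds IL-1 without signalling, had 61 UMIs in 46 SAA cells and 0 in RC. This was 13.6-fold higher against a floor of 3 UMIs, with an exact lower limit of 10.7. *Il1r2* was also higher in granulocyte-like cells at 6.95 (4.42–11.5). *Il18rap*, a chain of the IL-18 receptor, had 42 UMIs in SAA and 1 in RC in monocyte-like cells, a ratio of 28.1 (4.78–1137), and 20 in SAA and 1 in RC without T or NK and mixed barcodes, a ratio of 18.0 (2.88–746). In granulocyte-like cells it was level, at 0.96 (0.77–1.20), from 185 UMIs in SAA and 144 in RC. *Myd88*, the adaptor that IL-1 and IL-18 receptors share with Toll-like receptors, stood at 2.42 (1.90–3.09) in monocyte-like and 2.52 (1.97–3.25) in granulocyte-like cells. The remaining of 4 higher genes in granulocyte-like cells was *Il18r1*, the other chain of the IL-18 receptor, at 2.94 (1.61–5.72), named after its value had been seen.

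All 11 genes listed for the cutting and release of IL-1β and IL-18 had enough UMIs in monocyte-like cells, with a median log2 ratio of 0.47. Of these 2 were higher and 1 lower, beside 7.8% higher and 8.67% lower among all genes. Whether counts this small differ from those shares was not tested. *Casp4*, the mouse caspase-11 gene, had 130 UMIs in SAA and 19 in RC, a ratio of 4.58 (2.82–7.86). *Panx1*, a membrane channel gene, stood at 2.68 (1.36–5.75). *Txnip*, whose product binds thioredoxin, was lower at 0.38 (0.32–0.44), from 255 UMIs in SAA and 454 in RC. *Casp1*, the IL-1β converting enzyme, stood at 1.89 (1.46–2.48), short of 2-fold, in monocyte-like cells and at 3.61 (2.66–4.98) in granulocyte-like cells, where it and *Casp4* (4.85, 3.48–6.92) were the 2 higher genes of 9. *Casp1* is named after its value had been seen.

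**Figure D3:**
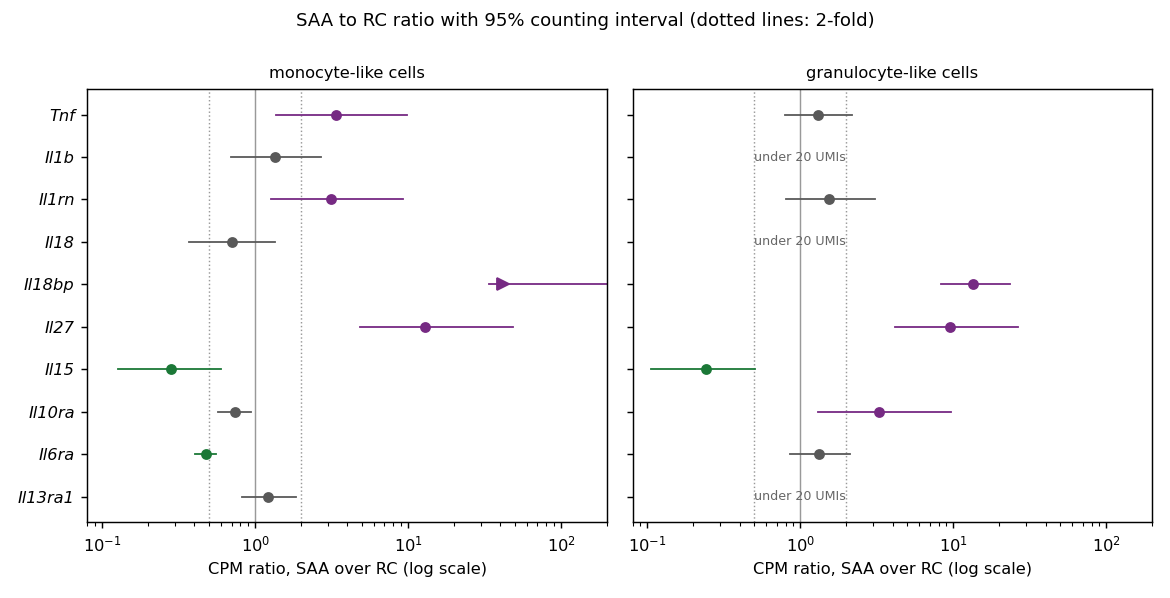
Ratio of SAA to RC CPM for each gene on a log scale, with its exact 95% counting interval; purple marks a ratio of at least 2, green at most 0.5, and the triangle for *Il18bp* in monocyte-like cells stands at 42, the ratio to a floor of 3 UMIs since RC held 0, on a line that starts at the exact lower limit of 33.8. *Il18bp* and *Il27* are higher and *Il15* lower in both classes, while *Tnf*, *Il1rn* and *Il6ra* pass 2-fold in monocyte-like cells and have granulocyte-like ratios of 1.30, 1.55 and 1.33.

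*Il27* (chromosome 7, 126589010 to 126594941, minus strand) encodes p28, the subunit that is particular to IL-27. Monocyte-like cells held 77 UMIs in 59 SAA cells and 4 UMIs in 4 RC cells, or 38.0 CPM (30.0–47.4) in SAA and 2.94 CPM (0.802–7.54) in RC, a ratio of 12.9 (4.84–48.5). Granulocyte-like cells held 76 UMIs in 67 SAA cells and 6 UMIs in 6 RC cells, or 22.9 CPM (18.1–28.7) in SAA and 2.42 CPM (0.888–5.27) in RC, a ratio of 9.47 (4.16–26.6). *Il27* was thus detected across both classes of SAA and close to its limit in RC. Within SAA its monocyte-like level was 1.66 times the granulocyte-like one (1.19–2.30). After thinning, 8.24% of SAA (5.24–12.2%) and 1.5% of RC monocyte-like cells (0.411–3.81%) held a UMI, and 6.54% of SAA and 0.631% of RC granulocyte-like cells, beside 1 of 29 T or NK-like barcodes of SAA (3.45%, 0.0873–17.8%), an interval too wide to set a background. Cycling and non-cycling monocyte-like cells of SAA stood at 33.0 and 44.9 CPM, against 1.79 and 3.75 CPM in RC. *Apobr*, on the opposite strand, had ratios of 0.73 (0.57–0.93) in monocyte-like and 1.36 (1.05–1.77) in granulocyte-like cells.

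*Ebi3*, the gene of the partner subunit, was lower in SAA in monocyte-like cells, with 34 UMIs in SAA and 55 in RC, a ratio of 0.41 (0.26–0.65), and level in granulocyte-like cells at 0.97 (0.79–1.19), with 228 UMIs in SAA and 176 in RC. Of the 59 SAA monocyte-like cells with an *Il27* UMI, 11 also held one of *Ebi3*, as did 26 of 67 in granulocyte-like cells. In SAA monocyte-like cells *Ebi3* was found in 18.6% of those with *Il27* and 9.29% of those without it, with no correction for depth. It was found in 38.8% of the SAA granulocyte-like cells with *Il27* and 38.1% of those without it.

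*Il6ra* (chromosome 3, 89864059 to 89913196, minus strand) encodes the chain that binds IL-6 before gp130 signals. It had the most UMIs of the 10 genes in monocyte-like cells, with 251 in 156 SAA cells and 355 in 223 RC cells. The levels were 124 CPM (109–140) in SAA and 261 CPM (235–290) in RC, a ratio of 0.47 (0.40–0.56). Although SAA cells were deeper, fewer of them held a UMI, at 54.7% of SAA (48.8–60.6%) and 65.2% of RC (59.9–70.2%). At equal depth the shares were 28.1% of SAA (22.8–33.9%) and 49.6% of RC cells (43.5–55.8%). The level was lower in SAA in cycling cells, at 0.62 (0.48–0.80), and in non-cycling cells, at 0.42 (0.33–0.53). Since the ratio lay near the limit of 2-fold, it no longer reached it with the stricter cell filter, at a log2 ratio of -0.91, or without T or NK and mixed barcodes, at -0.98.

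In granulocyte-like cells *Il6ra* was sparse and not lower in SAA, with 57 UMIs in 50 SAA cells and 32 UMIs in 27 RC cells, a ratio of 1.33 (0.85–2.12). The monocyte-like level was 7.20 times the granulocyte-like one in SAA (5.38–9.77) and 20.3 times in RC (14.1–30.1). Among T or NK-like barcodes of SAA, 0 of 39 had a UMI of it. The signalling chain *Il6st*, which encodes gp130, stood at 0.60 (0.47–0.77) in monocyte-like cells, with 131 UMIs in SAA and 146 in RC, and is named after its value had been seen. Of SAA monocyte-like cells with *Il6ra*, 40.4% also held *Il6st*, against 35.0% in RC.

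Among 22 genes of the IL-6, IL-27 and gp130 group, 11 had enough UMIs in monocyte-like cells, with a median log2 ratio of 0.01. Of these 3 were higher and 2 lower, beside 7.8% higher and 8.67% lower among all genes. *Socs3*, an inhibitor that gp130 signals induce, had 86 UMIs in 58 SAA cells and 1 UMI in RC, a ratio of 57.6 (10.1–2301). *Il12rb1*, a receptor chain for IL-12 and IL-23, had 45 UMIs in 38 SAA cells and 0 in RC. This was 10.0-fold higher against a floor of 3 UMIs, with an exact lower limit of 7.84. *Il27* was the other higher gene, and *Il6ra* and *Ebi3* were the lower ones. In granulocyte-like cells *Socs3* had 25 UMIs in SAA and 0 in RC, 6.23-fold higher against that floor. *Il12rb1* had 28 UMIs in SAA and 1 in RC there, a ratio of 20.9 (3.46–856). *Il6* was at 0 UMIs in RC monocyte-like cells and in both sets of granulocyte-like cells, and *Il27ra* had 0 UMIs in both classes of both.

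*Il15* (chromosome 8, 82331632 to 82403222, minus strand) encodes IL-15, which sustains NK cells and memory CD8+ T cells. It was lower in SAA in both classes. Monocyte-like cells held 11 UMIs in 10 SAA cells and 26 UMIs in 25 RC cells, or 5.42 CPM (2.71–9.70) in SAA and 19.1 CPM (12.5–28.0) in RC, a ratio of 0.28 (0.13–0.59). Granulocyte-like cells held 10 UMIs in 10 SAA cells and 31 UMIs in 25 RC cells, or 3.02 CPM (1.45–5.55) in SAA and 12.5 CPM (8.49–17.7) in RC, a ratio of 0.24 (0.11–0.50). The counts are low, and 5 of the 31 RC UMIs came from 1 cell. At equal depth 2.25% of SAA (0.829–4.83%) and 5.64% of RC monocyte-like cells (3.19–9.13%) held a UMI, intervals that overlap. For granulocyte-like cells the thinned shares were 0.242% of SAA (0.00613–1.34%) and 2.21% of RC (0.892–4.50%), whose intervals also overlap. In non-cycling monocyte-like cells the ratio was 0.30 (0.11–0.73) and in late granulocyte-like cells 0.26 (0.09–0.65). Cycling monocyte-like and early granulocyte-like cells held under 20 UMIs each and were too sparse to judge.

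On the receptor side of IL-15, *Il15ra*, *Il2rg* and *Jak3* differed in the opposite direction. *Stat5a*, described below, was lower in SAA in monocyte-like cells. *Il15ra*, the chain that presents IL-15, had 60 UMIs in 51 SAA monocyte-like cells and 8 UMIs in 8 RC cells, a ratio of 5.02 (2.39–12.2). In granulocyte-like cells it stood at 4.16 (2.02–9.61). *Il2rg*, the common γ chain of the receptors for IL-2, IL-4, IL-7, IL-9, IL-15 and IL-21, had 403 UMIs in SAA and 44 in RC in monocyte-like cells, a ratio of 6.13 (4.49–8.58), and stood at 5.14 (3.54–7.70) in granulocyte-like cells. *Jak3*, the kinase that binds this chain, stood at 2.95 (1.46–6.57) in monocyte-like and 2.88 (1.85–4.62) in granulocyte-like cells. Of SAA monocyte-like cells with an *Il15* UMI, 2 of 10 also held *Il15ra*, against 3 of 25 in RC.

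In this group 10 of 18 genes had enough UMIs in monocyte-like cells, with 6 higher, 2 lower (*Il15* and *Stat5a*) and a median log2 ratio of 1.66, and 10 in granulocyte-like cells, with 5 higher, 1 lower and a median of 0.99. *Stat5a*, a transcription factor of these receptors, stood at 0.45 (0.29–0.70) in monocyte-like cells. *Il21r*, the IL-21 receptor chain, had 30 UMIs in SAA and 0 in RC in monocyte-like cells. This was 6.70-fold higher against a floor of 3 UMIs, with an exact lower limit of 5.12. In granulocyte-like cells *Il21r* had 15 UMIs in SAA and 20 in RC. *Il2rb*, the β chain that T and NK cells use for IL-2 and IL-15, is counted among the 6 higher genes. It had 42 UMIs in SAA and 0 in RC in monocyte-like cells. All 42 lay in 10 cells, and 0 were left once T or NK and mixed barcodes were taken out, whereas *Il2rg* and *Il15ra* then stood at 5.98 (4.31–8.48) and 6.90 (2.94–19.8).

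**Figure D4:**
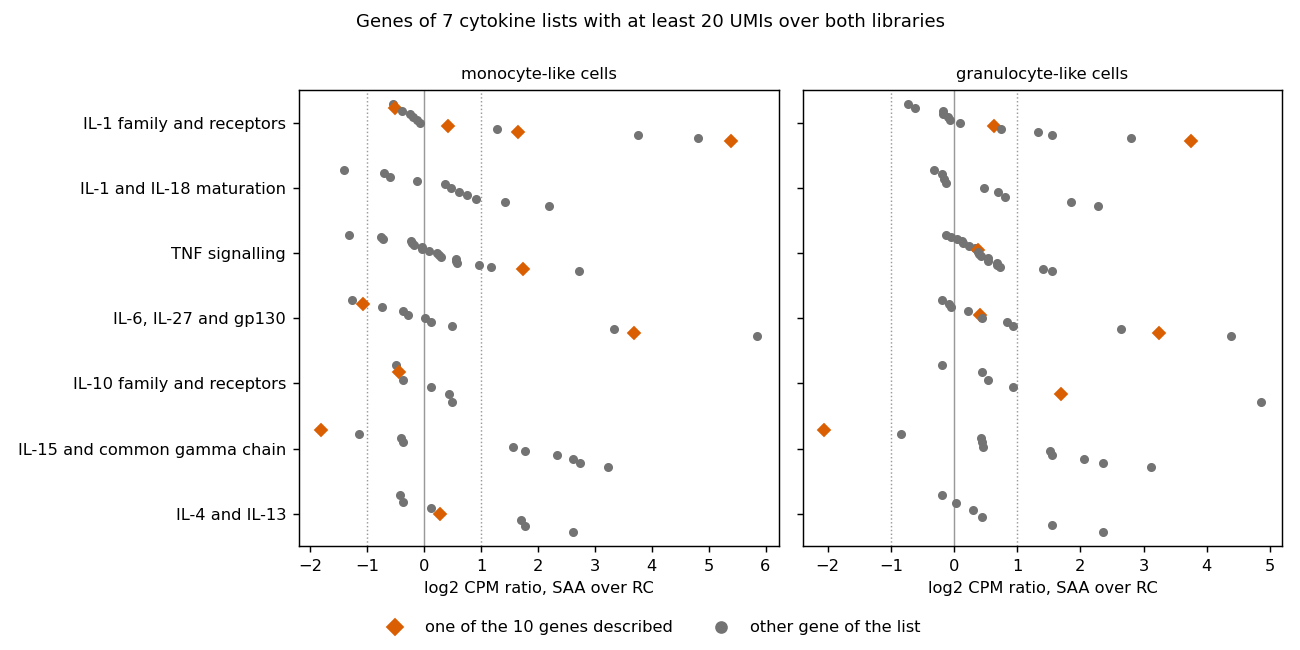
Log2 ratio of SAA to RC CPM for genes of 7 cytokine lists with at least 20 UMIs over both libraries, in monocyte-like (left) and granulocyte-like (right) cells; orange diamonds are the 10 genes described, grey points the other genes, and dotted lines mark 2-fold. In the IL-15 and common γ chain list *Il15* lies at -1.82 and -2.05, apart from 6 and 5 genes past 2-fold on the SAA side. The 6 include *Il2rb*, whose 42 UMIs in SAA monocyte-like cells lay in 10 cells, with 0 left without T or NK and mixed barcodes. Genes at 0 UMIs in RC are drawn at the floor of 3 UMIs.

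*Il10ra* (chromosome 9, 45253837 to 45269149, minus strand) encodes the ligand-binding chain for IL-10, a cytokine that restrains monocytes. Monocyte-like cells held 136 UMIs in 90 SAA cells and 124 UMIs in 97 RC cells, or 67.1 CPM (56.3–79.3) in SAA and 91.3 CPM (75.9–109) in RC, a ratio of 0.73 (0.57–0.94). It was lower in cycling than in non-cycling cells in both libraries, at 44.0 CPM in cycling and 99.2 CPM in non-cycling cells of SAA, and at 39.5 and 127 CPM in those of RC. Thinned shares were 15.4% of SAA (11.3–20.2%) and 24.1% of RC cells (19.1–29.7%), intervals that overlap slightly. The count in granulocyte-like cells was small, with 26 UMIs in 16 SAA cells and 6 UMIs in 4 RC cells, a ratio of 3.24 (1.30–9.63). It was also present in T or NK-like barcodes of SAA, at 29 UMIs in 15 of 39. With T or NK barcodes removed, 15 UMIs were left in granulocyte-like cells of SAA against 6 in RC, and the log2 ratio was 0.93, short of 2-fold. At equal depth 0.726% of SAA and 0.631% of RC granulocyte-like cells held a UMI.

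No gene of the IL-10 list reached 2-fold in monocyte-like cells, where 6 of 15 had enough UMIs and their median log2 ratio was -0.13. The 4 with the most UMIs included *Jak1*, *Stat3* and *Tyk2*, which carry the IL-10 signal, at 0.77 (0.64–0.93), 1.41 (1.13–1.77) and 1.09 (0.81–1.47). *Il10* itself had 0 UMIs in both classes of both libraries. In granulocyte-like cells *Il10ra* and *Bcl3* were the 2 higher genes of 6, and *Bcl3*, which encodes a nuclear IκB protein, had 116 UMIs in 90 SAA cells and 3 UMIs in 3 RC cells, a ratio of 28.9 (9.65–142). *Bcl3* is named after its value had been seen.

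*Il13ra1* (chromosome X, 36112110 to 36171259, plus strand) encodes a chain that joins IL-4Rα in the receptor for IL-13 and IL-4 on myeloid cells. It had 71 UMIs in 57 SAA and 39 UMIs in 35 RC monocyte-like cells, or 35.0 CPM (27.3–44.2) in SAA and 28.7 CPM (20.4–39.2) in RC, a ratio of 1.22 (0.81–1.85). The larger share of SAA cells with a UMI, 20% against 10.2% in RC, came down to 7.87% (4.93–11.8%) and 6.77% (4.06–10.5%) in SAA and RC at equal depth. In cycling monocyte-like cells the ratio was 2.01 (0.65–8.19), from 17 UMIs in SAA and 4 in RC. In non-cycling ones it was 1.46 (0.94–2.30). Granulocyte-like cells held 13 UMIs in 13 SAA cells and 0 in 318 RC cells, which allows a share of up to 0.943% by the floor of 3 cells (exact limit 1.15%). This is too sparse to judge. Monocyte-like cells exceeded granulocyte-like ones by 8.93 times in SAA (4.90–17.6), and in RC 39 UMIs stood against 0.

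Its partner *Il4ra* was higher, with 112 UMIs in 88 SAA and 22 UMIs in 20 RC monocyte-like cells, a ratio of 3.41 (2.14–5.66), and 2.94 (1.97–4.52) in granulocyte-like cells. A UMI of both chains was found in 24 of the 57 SAA monocyte-like cells with *Il13ra1* and in 1 of the 35 in RC, without correction for depth. Of 12 genes of the IL-4 and IL-13 list, 7 had enough UMIs, with 3 higher, 0 lower and a median log2 ratio of 0.29. Besides *Il2rg* and *Il4ra* the higher one was *Chil3*, a chitinase-like gene of alternatively activated mouse macrophages that granulocytes also make, at 3.27 (3.03–3.53), from 4022 UMIs in SAA and 824 in RC. Without T or NK and mixed barcodes *Chil3* stood at 2.98 (2.75–3.24), from 2467 UMIs in SAA and 745 in RC. In granulocyte-like cells, where *Chil3* was far more abundant with 12991 UMIs in SAA and 9451 in RC, its ratio was 1.03 (1.0–1.06). *Il4*, *Il13*, *Arg1* and *Retnla* had 0 UMIs in monocyte-like cells of both libraries.

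**Figure D5:**
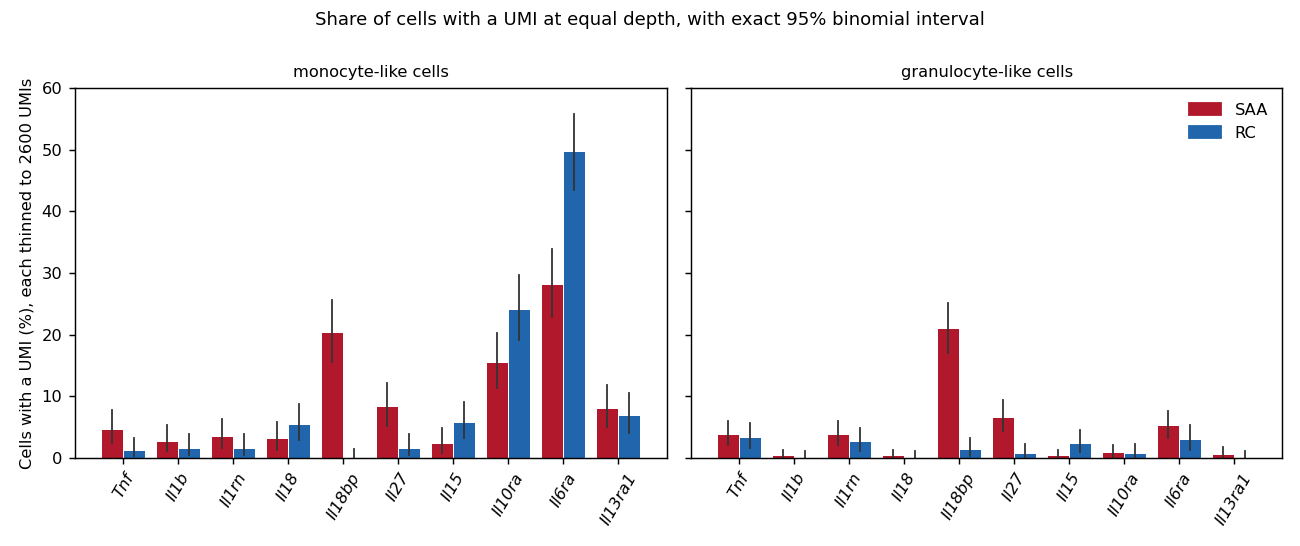
Share of cells with at least 1 UMI of each gene after each cell was thinned to 2600 UMIs, with SAA bars (red) left of RC bars (blue) and lines for the exact 95% binomial interval. *Il18bp* reaches 20.2% of SAA monocyte-like and 20.8% of SAA granulocyte-like cells against 0 of 266 and 1.26% in RC, and *Il6ra* 28.1% of SAA against 49.6% of RC monocyte-like cells.

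Markers of other cells differed between the libraries, and their part in the results was not tested beyond the values given here. The 15 T or NK markers summed to 169 CPM in monocyte-like cells of SAA and 4.42 CPM in those of RC, with 6 of 6 markers with enough UMIs higher and *Cd3e*, *Trac* and *Lck* at 0 in RC. The 10 macrophage markers summed to 198 CPM in SAA and 62.6 CPM in RC, with 4 of 5 markers with enough UMIs higher. *C1qb* had 135 UMIs in SAA and 0 in RC, *Adgre1* was level at 0.90 (0.66–1.22), and *Marco* was at 0 in both. The 10 mature neutrophil markers summed to 197 CPM in SAA and 122 CPM in RC, with 1 higher and 2 lower of 4. The higher one, *Wfdc21*, had 267 UMIs in SAA and 11 in RC. The 10 dendritic markers went the other way, at 37.5 CPM in SAA and 89.1 CPM in RC, with *Cd209a* at 0 UMIs in SAA and 40 in RC. Granulocyte-like cells of SAA had 9 of 11 T or NK markers higher, although the sum was 375 CPM in SAA and 410 CPM in RC, with *Nkg7* at 784 of its 1244 UMIs in SAA and 981 of 1016 in RC. Macrophage markers summed to 32.6 CPM in SAA and 110 CPM in RC there, but only 1 of the 10 had enough UMIs, and it was lower in SAA. A UMI of *C1qa*, *C1qb* or *C1qc* was found in 8 SAA and 3 RC granulocyte-like cells. The 5 monocyte genes of the class rule summed to 151 and 69.0 CPM in granulocyte-like cells of SAA and RC. Immediate early and stress genes, which handling can raise, summed to 552 CPM in SAA and 556 CPM in RC in monocyte-like cells, and to 272 and 193 CPM in granulocyte-like cells of SAA and RC. Of these genes 4 were higher and 2 lower of 12 with enough UMIs in monocyte-like cells, beside 7.8% higher and 8.67% lower among all genes. The higher ones were *Jun* (2.75), *Ier3* (4.91), *Atf3* (2.27) and *Hspa1b* (5.36), and the lower ones *Nr4a1* (0.22) and *Btg2* (0.28). The near-equal sums in monocyte-like cells thus hold differences in both directions. In granulocyte-like cells 4 were higher and 0 lower of 9, beside 6.63% higher and 5.12% lower among all genes. B cell, plasma cell and erythroid markers had 0 genes with enough UMIs in monocyte-like cells. The 38 SAA monocyte-like cells with a UMI of *C1qa*, *C1qb* or *C1qc* held 9 of the 30 *Tnf*, 54 of the 188 *Il18bp* and 11 of the 77 *Il27* UMIs. In the 247 SAA cells without one, these genes stood at 12.1, 77.2 and 38.0 CPM, against 4.43, 0 and 2.95 CPM in the 341 such RC cells. With T or NK and mixed barcodes removed, a setting chosen after the data had been seen, the ratios of *Tnf*, *Il1rn* and *Il27* in monocyte-like cells were 3.90 (1.57–11.6), 4.14 (1.54–13.9) and 13.3 (4.92–50.3). *Il18bp* was then 42.6-fold higher against a floor of 3 UMIs, with an exact lower limit of 34.2.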

How the data were processed

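Cells of 3 RC and 3 SAA mice were pooled per library, sorted as described and run through the 10x Genomics single cell 5′ v2 kit. The authors made the deposited UMI counts with Cell Ranger 6.0.1 against mm10; the files hold barcodes called cells, without normalization or cell types. Read depth and the use of strand are not given in the sources used here.

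Barcodes with at least 1000 genes were retained and classed by marker sums; none of them exceeded 25% mitochondrial UMIs. Within each library and class the UMIs of a gene were added up and divided by the class total. Intervals at 95% are exact: Poisson for CPM, conditional binomial for ratios and Clopper-Pearson for shares. A gene at 0 in 1 library was set against a floor of 3 UMIs of that library. The thinning depth lies just under the 10th percentile of UMIs per retained barcode (2694). Cells were not used as replicates and no p-value was computed. Doublets called by Scrublet (scanpy 1.11.5, expected rate 1%) (7 in SAA, 1 in RC) were kept, and 1 barcode sequence occurred in both libraries. Genes with at least 20 UMIs over both libraries and a ratio of 2 or more, or 0.5 or less, were counted. All 10 genes are named, and of each pathway list those past 2-fold in monocyte-like cells or otherwise the 4 with the most UMIs; genes outside this rule are marked. The genes and lists were chosen with earlier results of these data known.

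The 13 alternatives changed the cell filter, doublets, T or NK barcodes, class margin, scaling (TMM of edgeR 4.0.16 or median of ratios), weighting, depth, minimum of UMIs and fold; removing T or NK and mixed barcodes together was an alternative chosen after seeing the data. Python 3.11.15, numpy 2.4.6, scipy 1.17.1, pandas 2.3.3, matplotlib 3.10.9 and R 4.3.3 were used. Gene positions come from GENCODE vM21 (GRCm38) and promoter windows from RefSeq (GRCm38.p6).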

Additional observations from a re-analysis of the deposited data

Results flagged for a closer look

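The receptor chains for IL-10 and IL-6 had ratios on opposite sides of 1 in the 2 classes. The log2 ratio of SAA to RC for *Il10ra* was -0.45 in monocyte-like and 1.70 in granulocyte-like cells, and that for *Il6ra* was -1.08 in monocyte-like and 0.41 in granulocyte-like cells. With 1 library per group the difference between the classes was not tested, and the granulocyte-like values rest on 26 UMIs in SAA and 6 in RC for *Il10ra* and on 57 in SAA and 32 in RC for *Il6ra*. As a ratio, the monocyte-like value of *Il10ra* was 1.12 (0.67–1.93) in cycling and 0.78 (0.58–1.05) in non-cycling cells. Under the stricter cell filter the monocyte-like log2 ratio of *Il10ra* was -0.12. The granulocyte-like value of *Il10ra* was 0.93 without T or NK barcodes, short of 2-fold. Without T or NK and mixed barcodes it was 0.66, from 6 UMIs in SAA and 3 in RC, too sparse to judge. It was 2.14 with mixed barcodes alone removed and 2.08 with called doublets removed. *Il18bp* was also found in barcodes with under 1000 genes, which the comparisons leave out. It had 7 UMIs in the 36 SAA barcodes of this kind in which monocyte genes led, against 0 UMIs in 94 of RC, and 5 UMIs in the 41 SAA barcodes in which granule genes led, against 0 in 32 of RC.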

How the results depend on the processing

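The ratio of each of the 10 genes was recomputed under 11 alternatives, where UMIs were left. In monocyte-like cells 109 of 110 alternative values kept the sign of the reported one; the exception was *Il1b*, between -0.01 and 1.56 on the log2 scale. The value of 1.56 came with the stricter cell filter, which left 0 RC UMIs. In granulocyte-like cells 97 of 97 kept the sign, but these include 10 values of *Il18* and 10 of *Il13ra1*, too sparse to judge there. *Il18* held 1 UMI in each library throughout and *Il13ra1* 0 in RC, so their signs followed largely from the class totals and the floor. Of all alternative values, 20 in monocyte-like and 9 in granulocyte-like cells could not change, since no retained barcode exceeded 25% mitochondrial UMIs and 0 called doublets were monocyte-like. *Il18bp* in monocyte-like cells stood between 4.50 (thinned) and 5.55, with 4.74 under the stricter filter. Since RC held 0 UMIs, these are ratios to the floor and move with the UMIs left. The count of higher genes in monocyte-like cells was 2 (*Il18bp*, *Il27*) with thinning or a minimum of 50 UMIs, which leave *Tnf* and *Il1rn* under the minimum. That of lower genes was 1 with the stricter cell filter, with a minimum of 50 UMIs, and without T or NK and mixed barcodes. In granulocyte-like cells the count of lower genes was 0 with thinning or a minimum of 50 UMIs, and that of higher genes was 2, without *Il10ra*, with thinning, a minimum of 50 UMIs, and T or NK barcodes removed with or without mixed ones, and 4 with a minimum of 10 UMIs or a fold of 1.5. Scaling by TMM or median of ratios shifted all log2 ratios by at most 0.07. No paired analysis was possible because each group is 1 library. At these depths a gene at 0 UMIs in RC is not detected rather than absent.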
